A study of Mus musculus with 14 samples.

Results

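The nuclei described here are those that the authors labeled microglia in snRNAseq of brain vascular fragments. The label alone chose them, and they number 140 of 31324 brain nuclei. The control library holds 129 of them among 16649 nuclei, and the library from *Cdh5CreER;Tgfbr1 CKO/-* mice (CKO) holds 11 among 14675, so the control profile carries most of what follows.

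The study asked how loss of TGF-beta signaling in vascular endothelial cells (ECs) changes blood vessels of the central nervous system and the cells around them. Minced brain was spun in a Ficoll solution to concentrate pieces of vessel. Nuclei were then captured with PIPseq, in which molecular tags (UMIs) let copies of the same transcript made by PCR be counted as 1. Each brain library pools 2 brains, and there is 1 library per genotype. The retina of the same kinds of mice gave 12 further libraries, 1 control and 11 CKO.

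CKO mice carry a conditional and a null allele of *Tgfbr1*, which encodes a TGF-beta type I receptor, and Cre under the EC promoter *Cdh5*, which the series labels name VEcadCreER, activated with 4-hydroxytamoxifen (4HT) on postnatal days 3 to 5. The null allele would be present in every cell and not in ECs alone, and the deposited values, given by gene, hold no information on which *Tgfbr1* transcripts lack the deleted part. Controls are labeled wild type and are described in the study as phenotypically wild type, a term it uses for control retinas that typically carry the Cre driver with 1 conditional and 1 wild-type allele of *Tgfbr1* or *Tgfbr2*. The genotype of the brain controls is not stated more closely, and no source states whether they received 4HT. The study's methods give the age as postnatal day 14, whereas the series labels call the mice young adults. The labels give no sex, but genes of the sex chromosomes set the brain libraries apart. *Xist*, transcribed from the inactive X chromosome, had a UMI in 63.4% of all control nuclei and in 0.150% of all CKO nuclei. Summed transcripts of the Y-linked genes *Uty*, *Eif2s3y*, *Ddx3y* and *Kdm5d* were at 189 CPM (UMIs of the genes, scaled to the same total of UMIs in each set by the usual CPM unit) in the control and 421 CPM in the CKO library. Genotype, sex and library therefore cannot be told apart in any comparison of the CKO with the control. The libraries share 2 cell barcodes, 0 of them among microglia.

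Microglia are the resident macrophages of brain tissue. They enter the brain in the embryo from the yolk sac, depend on the receptor CSF1R with its ligands CSF1 and IL34, and need TGF-beta signaling to keep the expression of genes such as *P2ry12*, *Tmem119* and *Sall1*. Border macrophages, which lie along vessels, in the meninges and in the choroid plexus, share much of the myeloid program but carry *Mrc1*, *Cd163* and *Lyve1*.

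The microglia held few UMIs. Control microglia had 79925 UMIs in all, with a median of 402 per nucleus (range 258 to 5271) and a median of 261 genes, the lowest median depth of the 21 brain labels. The other control nuclei had a median of 1557 UMIs. CKO microglia had 14637 UMIs, with a median of 548 per nucleus, and 4 of the 11 nuclei held 72.5% of them. With 1 library per genotype there is no spread between replicates and no test. Intervals below are exact 95% intervals, binomial for shares, Poisson for levels and conditional binomial for ratios, and cover counting error only.

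The share of nuclei labeled microglia was 0.775% in the control (95% interval 0.647 to 0.920) and 0.0750% in the CKO library (0.0374 to 0.134). The CKO share was 10.3-fold lower (5.59 to 21.2). Pericytes and the cluster Glut_5 had ratios of 0.124 and 0.153, which lie within the interval of the microglial ratio of 0.0967 (0.0471 to 0.179), and these 3 labels had the lowest median depths in the control. The next lowest ratio, 0.260, was that of vascular smooth muscle cells, whose control median of 1516 UMIs ranked 11 of 21 labels from the lowest. The label-free counts gave a smaller difference. Nuclei with UMIs of at least 3 genes of a 20-gene microglial identity list, whatever their label, made up 1.77% of the control (295 nuclei) and 0.865% of the CKO library (127 nuclei), a ratio of 0.488 (0.394 to 0.603). Summed over all nuclei, the identity list stood at 85.7 CPM in the control and 69.2 CPM in the CKO library, a ratio of 0.807 (0.766 to 0.850). Only 25.7% of the control UMIs of this list lay in nuclei labeled microglia.

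The nuclei of other labels that carried identity genes were deep nuclei. In the control, 186 nuclei of other labels had UMIs of at least 3 identity genes, with a median of 7149.5 UMIs against 1557 in all other control nuclei. Their identity UMIs stood at 620 CPM, against 14932 CPM in the 109 labeled microglia that passed the same rule. Of the 186 nuclei, 63 were labeled ECs and 37 were labeled vascular smooth muscle cells, and 124 had a UMI of *Flt1*, an endothelial VEGF receptor gene. The CKO library held 124 such nuclei, 70 of them labeled ECs. Among the labeled microglia themselves, 109 of 129 control nuclei (84.5%) and 3 of 11 CKO nuclei (27.3%) had UMIs of at least 3 identity genes. Among nuclei with at least 1000 UMIs, 11 control and 5 CKO nuclei were labeled microglia, a ratio of shares of 0.541 (0.147 to 1.69), whose interval includes 1. Most of these deep labeled nuclei, in each library, also had at least 5 UMIs of a neuron list. In the CKO library the ones with such neuron UMIs had 0, 3, 2 and 2 identity UMIs. The ratio is therefore not a comparison of microglia at matched depth. Whether depth or doublets bear on the share was not tested.

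The 3 markers of the label were present in the control. *P2ry12*, the ADP receptor that guides microglial processes, had 82 UMIs in 58 nuclei (45.0%, interval 36.2 to 54.0). *Cx3cr1*, the receptor for the neuronal chemokine fractalkine, had 81 UMIs in 56 nuclei (43.4%, 34.7 to 52.4). *Csf1r* had 125 UMIs in 81 nuclei (62.8%, 53.8 to 71.1). In ECs, which should lack these genes and had a median of 1347 UMIs, the shares were 0.889%, 1.62% and 2.83%. Thinned to 500 UMIs, which left 38 microglial nuclei and left out 91, the shares in microglia were 42.1%, 26.3% and 47.4%, against 0.194%, 0.194% and 0.340% in ECs thinned alike. At least 1 UMI of a label marker was found in 114 of 129 control nuclei. In the CKO library, *P2ry12* had 1 UMI, *Cx3cr1* had 4 UMIs and *Csf1r* had 5 UMIs among 11 nuclei.

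Markers of other blood cells had few UMIs in the control nuclei. All 6 measured T or NK cell genes, all 4 measured neutrophil genes and all 5 erythroid genes had 0 UMIs, and 5 of the 6 measured monocyte genes had at most 1 UMI, with 4 UMIs of *Ccr2*. Dendritic cell genes summed to 12 UMIs in 9 nuclei (150.1 CPM, 2.37 times the other nuclei), led by *Zbtb46* with 9, with *Flt3*, *Xcr1* and *Ccr7* at 0. B cell genes summed to 3 UMIs in 1 nucleus (13.1 times the other nuclei), with *Ms4a1* at 0. Endothelial markers summed to 52 UMIs in 7 nuclei, led by *Flt1* with 24 UMIs, and the defining genes *Cldn5* and *Cdh5* had 0 UMIs.

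The label covered unlike nuclei. In 53 of the 129 control nuclei (41.1%, 32.5 to 50.1) at least 2 UMIs came from an 8-gene border macrophage list (*Mrc1*, *Cd163*, *F13a1*, *Lyve1*, *Pf4*, *Ms4a7*, *Cbr2* and *Siglec1*), so for these nuclei the data go against the label as a name for parenchymal microglia alone. The split was sharp in the deposited counts, since 75 nuclei had 0 such UMIs, 1 had 1 UMI, 0 had 2 UMIs, 1 had 3 UMIs and 52 had at least 4. The authors had removed background from these counts with CellBender, and its part in the gap was not tested. *F13a1*, which encodes a subunit of coagulation factor XIII, had 472 UMIs in 51 nuclei, and *Mrc1*, which encodes the mannose receptor, had 337 UMIs in 52 nuclei. The 53 nuclei had a median of 16 border macrophage UMIs and 5 identity UMIs, and the other 76 had a median of 11 identity UMIs. Median depth was 432 UMIs in the 53 nuclei and 395.5 UMIs in the 76. In the CKO library 2 of 11 nuclei had at least 2 border macrophage UMIs.

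**Figure D1:**
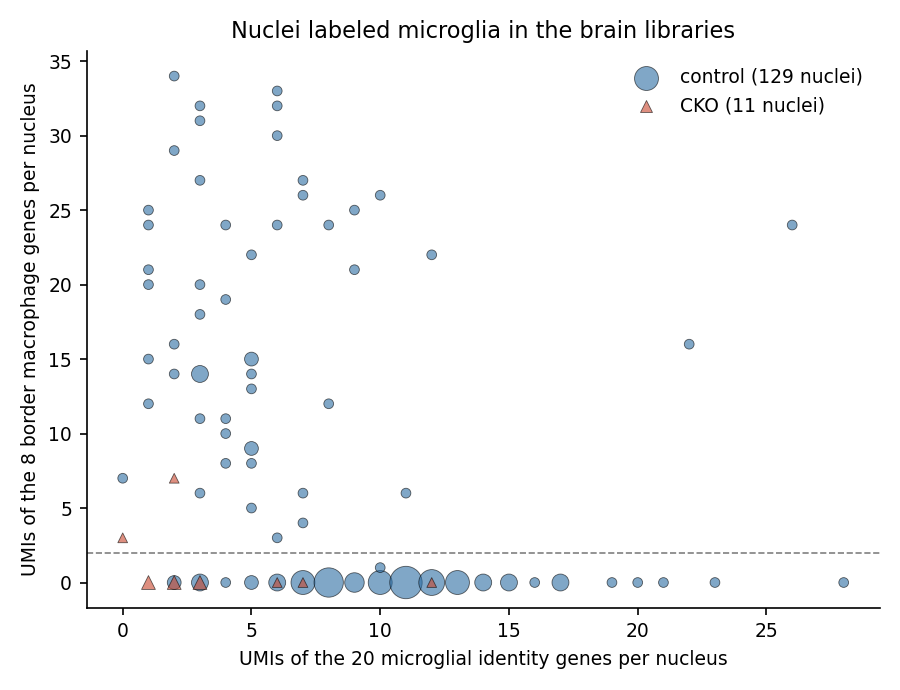
Each symbol shows nuclei labeled microglia by their UMIs of the 20 microglial identity genes (x axis) and of the 8 border macrophage genes (y axis), with circles for control and triangles for CKO nuclei, an area that grows with the number of nuclei at a point, and a dashed line at 2 UMIs. The control nuclei fall into 76 along the lower edge and 53 above the line.

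The control profile was compared with all other control nuclei as the ratio of CPM of summed UMIs, for the 843 genes with at least 20 UMIs in control microglia. Since the label comes from clustering these genes, the ratios are a description. At a ratio of at least 4, 510 genes (60.5%) were called, and the median ratio over all 843 genes was 6.75. The 25 leading genes stood between 554-fold and 1148-fold above the other nuclei and held 6 members of the identity list and 0 of the border macrophage list. The size of these ratios differed with the reference and with the nuclei used. Against the highest other label *Cd37* was at 260.2 and *Apbb1ip* at 95.4, and in nuclei with at least 1000 UMIs they were at 403 and 96.2. Control microglia made up 0.160% of all control UMIs, and for the leading genes a median of 51.7% of control UMIs lay in them.

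**Figure D2:**
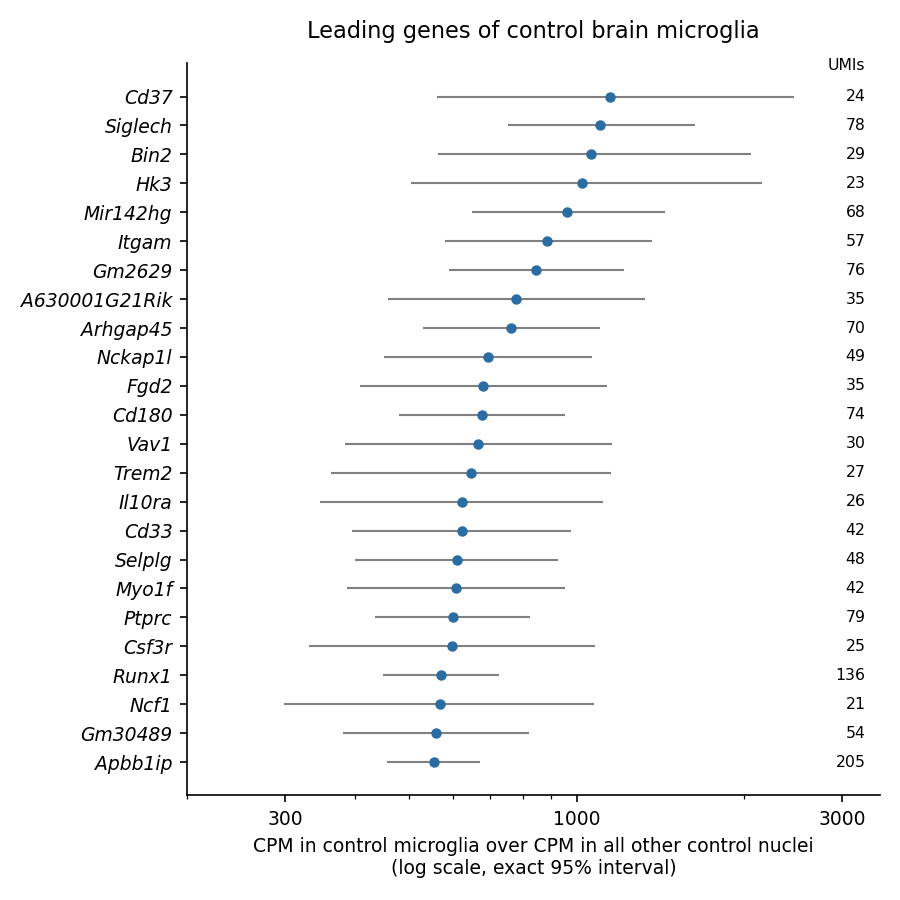
Ratio of CPM in control microglia over CPM in all other control nuclei (x axis, log scale) for 24 of the 25 leading genes, with exact 95% intervals and the UMIs in control microglia at the right. The intervals of neighboring genes overlap, so their order is not resolved.

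Roles below are given gene by gene, and no theme of the 25 was tested. *Cd37*, a tetraspanin of leukocytes, had 24 UMIs in 21 microglial nuclei and 13 UMIs in all other control nuclei, a ratio of 1148 (562 to 2456). *Siglech*, a sialic acid binding lectin used as a microglial marker, had 78 UMIs in 41 nuclei, a ratio of 1103 (753 to 1634). The integrin subunit gene *Itgam*, which encodes CD11b, had 57 UMIs and a ratio of 886 (581 to 1363). *Trem2*, the lipid-sensing receptor that signals through TYROBP, had 27 UMIs and a ratio of 646 (363 to 1152). *Ptprc*, which encodes the leukocyte phosphatase CD45, had 79 UMIs and a ratio of 599 (434 to 826). *Cd180*, *Cd33*, *Il10ra*, *Csf3r* and *Selplg* were further surface receptor and adhesion genes among the leading 25, with ratios from 598 to 677.

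Other leading genes encode proteins inside the cell or noncoding RNA. *Apbb1ip*, an adaptor that links Rap1 to integrin activation, had 205 UMIs in 77 nuclei and a ratio of 554 (457 to 672). *Vav1*, a guanine nucleotide exchange factor of blood cells, had 30 UMIs and a ratio of 666 (385 to 1158). *Nckap1l*, a subunit of the hematopoietic WAVE complex, had 49 UMIs and a ratio of 693 (452 to 1065). *Bin2*, *Arhgap45*, *Fgd2* and *Myo1f*, which encode proteins of membrane shaping, GTPase control or actin-based movement, stood between 608 and 1061. *Ncf1*, a subunit of the phagocyte NADPH oxidase, had 21 UMIs and a ratio of 568 (299 to 1073), and *Hk3*, a hexokinase of myeloid cells, had 23 UMIs and a ratio of 1022 (504 to 2148). The noncoding *Mir142hg*, host of a blood cell microRNA, had 68 UMIs and a ratio of 961 (648 to 1438). *Gm2629* and *A630001G21Rik*, whose roles are not known, were at 844 and 778.

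*Gm30489*, also among the 25, needs care. All its 54 UMIs lay in nuclei with border macrophage UMIs. In the GRCm39 annotation it lies on the plus strand of chr13:37147213-37157303, inside the minus strand gene *F13a1* at chr13:37051152-37234277. No source states whether the authors' counting used strand, so its UMIs and those of *F13a1* cannot be told apart with certainty.

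The identity list as a whole was above the rest. Of its 20 genes, 14 had at least 20 UMIs and 14 of the 14 were called, with a median ratio of 490 beside 6.75 for all tested genes. *Sall1*, a zinc finger transcription factor confined to microglia among brain macrophages, had 35 UMIs in 25 nuclei and a ratio of 54.6 (37.5 to 77.2). *Gpr34*, a lysophosphatidylserine receptor, had 54 UMIs in 46 nuclei and a ratio of 517 (353 to 753). *Tmem119*, a widely used microglial marker, was sparse in these nuclei, with 11 UMIs in 10 nuclei.

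Myeloid transcription factors were called in 10 of the 10 members tested of an 18-gene list, beside 60.5% of all tested genes, with a median ratio of 43.7 beside 6.75. *Spi1*, which encodes the myeloid master regulator PU.1, had 24 UMIs in 20 nuclei and a ratio of 415 (237 to 715). *Runx1*, needed for definitive blood formation, had 136 UMIs in 68 nuclei and a ratio of 572 (450 to 726). *Ikzf1*, a lymphoid and myeloid zinc finger regulator, had 140 UMIs and a ratio of 534 (423 to 674), and *Irf8*, which directs the macrophage lineage, had 30 UMIs and a ratio of 228 (145 to 350). *Mef2a* and *Mef2c*, which are also used by neurons, had 264 and 257 UMIs but ratios of 13.9 (12.2 to 15.7) and 4.56 (4.02 to 5.15). *Cebpb* and *Bhlhe40* had 0 UMIs.

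Receptors for the growth factors and signals of the brain were likewise present. *Csf1r* stood at 1564 CPM (1302 to 1863) and 389-fold (308 to 489) above the other nuclei, and *Cx3cr1* at 1013 CPM and 205-fold (157 to 264). Of the TGF-beta list, *Tgfbr1* stood at 2865 CPM (2506 to 3261), from 229 UMIs in 74 nuclei, 89.8-fold (77.8 to 103) above the other nuclei. *Tgfbr2*, the type II receptor gene, stood at 1126 CPM and 13.6-fold (10.9 to 16.7) above them. *Nrros*, whose product anchors latent TGF-beta1 on microglia, had 47 UMIs and a ratio of 88.6 (63.8 to 121). The ligand gene *Tgfb1* had 7 UMIs and *Smad3* had 15 UMIs, both below the minimum of 20 for a ratio to be called.

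Of the tested genes for purinergic signaling 5 of 5 were called, and of those for phagocytic receptors and bridging proteins 4 of 5, beside 60.5% of all tested genes. *P2ry6*, a UDP receptor gene tied to phagocytosis, had 47 UMIs and a ratio of 541 (358 to 816). *P2rx7*, an ATP-gated channel gene, had 86 UMIs and a ratio of 137 (107 to 173), and *Entpd1*, which encodes the ectonucleotidase CD39, had 93 UMIs and a ratio of 24.0 (19.3 to 29.5). *Mertk*, a phagocytic receptor tyrosine kinase, had 289 UMIs in 101 nuclei, a ratio of 47.8 (42.3 to 53.9). Of its relatives, *Axl* and *Tyro3* had 0 UMIs. The bridging protein gene *Pros1* had 32 UMIs and a ratio of 13.2 (9.00 to 18.7), whereas *Gas6* had 0.

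Complement genes were called in 5 of the 5 members tested, beside 60.5% of all tested genes, so that the count by itself says little for so short a list. *C1qa*, *C1qb* and *C1qc*, the chains of the first component of the classical pathway, had 38, 29 and 26 UMIs, with ratios of 100 (69.2 to 142), 119 (76.9 to 177) and 66.3 (42.4 to 99.5). *C3*, the central component, had 0 UMIs. In the list of Fc receptors and tyrosine kinase signaling, 10 of 10 tested genes were called, with a median ratio of 178 beside 6.75. *Inpp5d*, a phosphatidylinositol phosphatase gene, had 236 UMIs in 96 nuclei and a ratio of 212 (182 to 246). Among pattern recognition receptors, 4 of 4 tested genes were called, again beside 60.5%, with 155 UMIs of *Ly86*, a partner of CD180, and 31 UMIs of *Tlr7*, a sensor of single-stranded RNA.

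Genes of activated states had few UMIs at this depth, although the sums of some lists were above the other nuclei. All 12 immediate early genes, among them *Fos*, *Jun* and *Egr1*, had 0 UMIs among 79925, which allows a level of up to 37.5 CPM for each. Of 20 genes for NF-kB and cytokines, 10 had 0 UMIs, among them *Il1b*, *Il6* and *Ccl2*, and the list's only tested gene, *Nfkb1*, was at a ratio of 3.50, with the list at 1001 CPM against 315 CPM in the other nuclei. Of the 13 measured genes of disease-associated and axon tract microglia, 7 had 0 UMIs, among them *Spp1*, *Gpnmb* and *Cst7*, and *Igf1* was the only one called, with 56 UMIs. The interferon response list summed to 57 UMIs in 40 nuclei with 0 genes at 20 UMIs, at 713 CPM against 125 CPM in the other nuclei (5.71-fold). MHC class II genes, which present antigen, were found in 4 nuclei with 30 UMIs in all, of which 16 lay in 1 nucleus, at 375 CPM against 7.96 CPM in the other nuclei (47.1-fold).

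The 53 nuclei with border macrophage UMIs were set against the 76 without, a comparison chosen after seeing the data. Of 838 genes outside the list, 146 (17.4%) were at least 2-fold higher in the 53 nuclei and 195 (23.3%) were at a ratio of at most 0.5. The identity list lay mainly on the side of the 76 nuclei. Of its 14 tested genes, 8 were at a ratio of at most 0.5 and 1 was at least 2-fold higher, with a median ratio of 0.334 beside 0.920 for all tested genes. Of the 25 leading genes, 15 were at a ratio of at most 0.5, 2 were at least 2-fold higher, and 24 had UMIs in both sets.

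*Sall1* had the lowest ratio among identity genes with at least 20 UMIs, with 1 UMI in the 53 nuclei and 34 UMIs in the 76. Its levels were 27.9 against 772 CPM (ratio 0.0361, 0.000887 to 0.215). The interval of *Siglech*, at a ratio of 0.102 (0.0363 to 0.234), overlaps that of *Sall1*, so their order is not resolved. *Siglech* had 6 UMIs in the 53 nuclei and 72 UMIs in the 76 (9.78-fold, from 167 to 1635 CPM). *Tmem119* had 0 UMIs in the 53 nuclei and 11 UMIs in the 76, at least 2.99-fold higher in the latter. Here and below, a fold written as at least takes a count of 0 as 3 UMIs and is not an interval limit. *Itgam* had 9 and 48 UMIs, a ratio of 0.230 (0.0992 to 0.474). Other members of the list differed less. *Csf1r* stood at 1421 and 1681 CPM, a ratio of 0.845 (0.580 to 1.22), and *Ptprc* at 919 and 1045 CPM, a ratio of 0.880 (0.545 to 1.41). *P2ry12* had 28 and 54 UMIs, a ratio of 0.636 whose interval (0.388 to 1.02) includes 1. *Adgre1*, which encodes the macrophage protein F4/80, was 2.51-fold (1.44 to 4.53) higher in the 53 nuclei. Without nuclei with at least 5 UMIs of a neuron list, 2 of the 53 and 4 of the 76, *P2ry12* was at 0.548 (0.332 to 0.887), an interval that does not include 1, *Adgre1* was 1.96-fold (1.12 to 3.53) higher and *Itgam* was at 0.166 (0.0679 to 0.356).

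Other lists differed in their tallies. Beside 23.3% of all genes at a ratio of at most 0.5, 3 of 4 tested integrin genes, 2 of 2 chemokine receptor genes and 6 of 10 genes of Fc receptors and tyrosine kinase signaling were at most 0.5, with 0, 0 and 1 at least 2-fold higher. Of the tested genes, 1 of 4 of the TGF-beta list was at a ratio of at most 0.5, 2 of 5 complement genes were at most 0.5 and 1 was at least 2-fold higher, and of 2 ion channel genes 1 lay on each side. *Tgfbr1* stood at 696 CPM in the 53 nuclei and 4634 CPM in the 76, a ratio of 0.150 (0.0950 to 0.228), whereas *Tgfbr2* was at 1086 and 1158 CPM, a ratio of 0.938 (0.602 to 1.45). The chemokine receptor gene *Ccr6* had 0 UMIs in the 53 nuclei and 16 UMIs in the 76. The integrin gene *Itgb5* stood at 279 and 1476 CPM, a ratio of 0.189 (0.0864 to 0.370). Of the 10 myeloid transcription factors tested, 4 were at a ratio of at most 0.5, beside 23.3% of all genes, and 0 were at least 2-fold higher, with *Mef2a* at 0.417 (0.311 to 0.553).

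Single genes of several lists were higher in the 53 nuclei, while lists differed in how their genes were divided. Beside 17.4% of all genes higher and 23.3% at most 0.5, 1 of 5 tested genes of the phagocytic receptor list was at least 2-fold higher and 3 were at most 0.5, of the lipid handling list 2 of 4 were higher and 1 was at most 0.5, and of the disease-associated and axon tract list 2 of 2 were higher. *Stab1*, a scavenger receptor gene, had 149 UMIs in the 53 nuclei and 12 UMIs in the 76, or 4151 against 273 CPM (15.2-fold, 8.46 to 30.1). *Dab2*, an endocytic adaptor gene, had 243 and 10 UMIs, or 6769 against 227 CPM (29.8-fold, 15.9 to 62.9). *Igf1*, a growth factor gene, stood at 1476 CPM from 53 UMIs against 3 UMIs (21.7-fold, 7.02 to 108). *Apoe*, which carries lipids, had 20 UMIs against 0 (at least 8.18-fold), and the complement gene *C4b* had 15 UMIs against 0 (at least 6.13-fold). *P2rx7* was 4.98-fold (2.90 to 9.03), the inhibitory Fc receptor gene *Fcgr2b* 5.31-fold (2.14 to 15.8) and the cholesterol exporter gene *Abca1* 3.97-fold (2.61 to 6.19) higher. Among genes that no list holds, named after their values were seen, *Rbpj*, the DNA-binding partner of Notch, had 426 UMIs against 12 (43.5-fold, 24.7 to 84.9). *Colec12*, a scavenger lectin gene, had 83 UMIs against 1 UMI (ratio 102, 17.8 to 4068), and the intervals of these 2 genes overlap. Without the nuclei with neuron UMIs, *Stab1* was 12.1-fold and *Dab2* 29.6-fold higher.

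**Figure D3:**
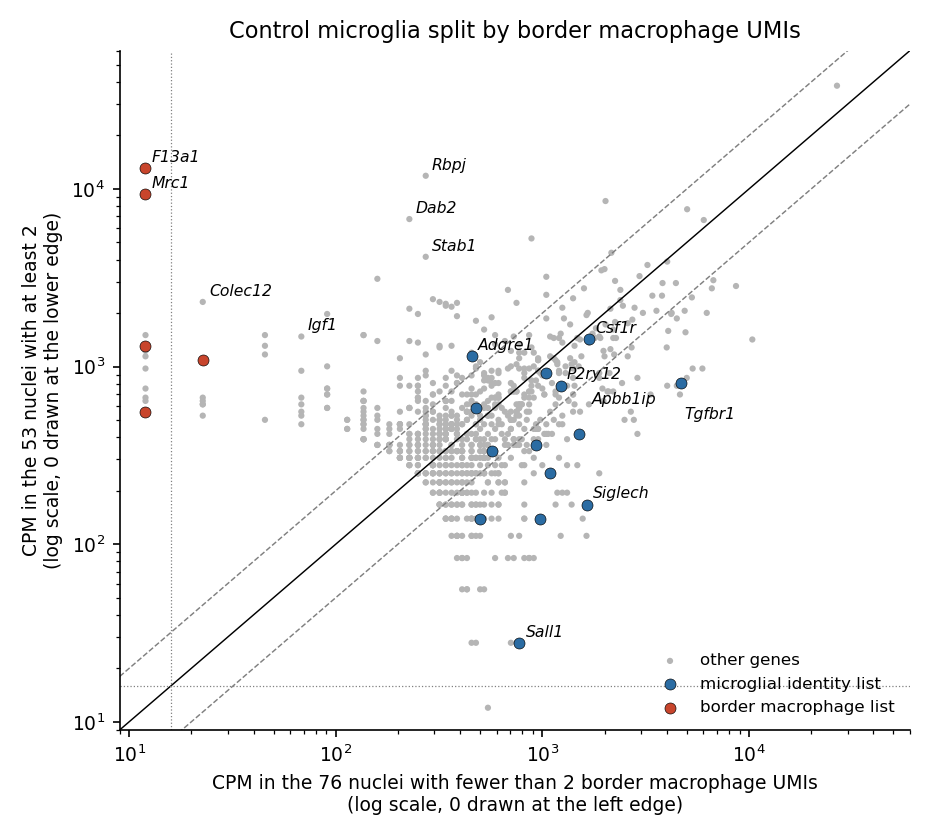
CPM of 843 genes in the 53 control nuclei with at least 2 border macrophage UMIs (y axis) against the 76 with fewer (x axis), on log scales, with dashed lines at 2-fold and 0 UMIs drawn at the edges. Genes of the border macrophage list, which define the split, lie at the upper left, while *Siglech* and *Sall1* lie below the lines and *Csf1r* and *P2ry12* between them.

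The Y-linked and X-linked genes varied within the control label. *Xist* had a UMI in 69 of the 129 nuclei, Y-linked genes in 22, both in 8 and neither in 46. The labels do not assign nuclei to either of the 2 pooled brains. *Xist* was at 6685 CPM in the 53 nuclei with border macrophage UMIs and at 6042 CPM in the 76 without, a ratio of 1.11 (0.925 to 1.32).

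Variation among the control nuclei was measured as the variance over nuclei divided by that of Poisson counting at each nucleus's own depth. Of 556 genes with at least 30 UMIs, 238 (42.8%) had a ratio of at least 2, and the median was 1.81. Among the 10 genes with the largest ratios, from 50.6 to 17.9, were *Rora*, *Dcc*, *Ptprd*, *Kcnd2*, *Nrxn3*, *Dab1*, *Pcdh9*, *Adarb2* and *Lsamp*, which are best known from neurons, and each was found in 5 to 9 nuclei. *Rora*, a nuclear receptor gene, had 208 UMIs in 8 nuclei, and 84.6% of them lay in 3. *Dcc*, an axon guidance receptor gene, had 60 UMIs, of which 41 lay in 1 nucleus.

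Neuron RNA lay in few nuclei of high depth. Of the 9 genes of the neuron list, 7 had UMIs, and they summed to 102 UMIs (1276 CPM) in 8 nuclei, led by *Meg3* with 34, with *Slc17a7* and *Gad1* at 0. The 6 nuclei with at least 5 such UMIs had a median of 2804 UMIs against 395 in the others and held 23.0% of all control UMIs. They held at least 50% of the UMIs of 71 of the 238 variable genes. Without them, 81 of 436 genes had a ratio of at least 2. Of the 10 most variable genes *Dcc* rose without them from 28.6 to 32.7 and *Lsamp* from 17.9 to 19.9. The 6 nuclei held 13.3% of the UMIs of *Dcc* but 96.2% of those of *Rora*. Genes of the oligodendrocyte precursor list summed to 186 UMIs in 9 nuclei, led by *Lhfpl3* with 89 UMIs, with *Olig1* at 0. Their part in the variation was not tested further.

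Among genes that the labels would lead one to look for, *F13a1* (14.4), *Mrc1* (9.24), *Elmo1* (6.67) and *Tgfbr1* (4.76) varied beyond counting, and *P2ry12* was at 1.63. Without the 6 nuclei with neuron UMIs the values were lower, at 9.66 for *F13a1*, 5.99 for *Mrc1*, 3.90 for *Elmo1* and 3.06 for *Tgfbr1*. For the 4 border macrophage genes measured the median was 6.06, and for the 13 identity genes it was 1.81, the same to 3 digits as over all genes.

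A cell cycle UMI was found in 49 of 129 control nuclei (38.0%), against 37.4% of the other control nuclei. UMIs of at least 3 of 25 cell cycle genes were found in 11 of 129 nuclei (8.53%), against 5.28% of the others, which were deeper. *Top2a*, a DNA topoisomerase gene of dividing cells, had 28 UMIs in 10 nuclei and a ratio of 16.5 (10.9 to 24.0). Of the 11 nuclei, 5 had border macrophage UMIs, and 1 nucleus held UMIs of 14 of the genes.

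The partners of microglial receptors were expressed in other labels. *Il34*, a ligand of CSF1R, stood highest in pericytes, at 1535 CPM from 187 UMIs in the control, and had 0 UMIs in microglia. The other ligand, *Csf1*, was at 76.2 CPM in the label glia, at 76.1 CPM in oligodendrocytes and at 50.2 CPM in ECs. *Cx3cl1*, the ligand of CX3CR1, was at 626 CPM in the neuron cluster Glut_20. *Gas6*, a ligand of MERTK, stood highest in the clusters CP_6, at 597 CPM, and CP_8, at 388 CPM. *Tgfb1* was highest in microglia, at 87.6 CPM (35.2 to 180), but the interval overlaps that of pericytes, at 57.5 CPM (23.1 to 118). *Tgfbr1* was 2865 CPM in microglia and 280 CPM (256 to 307) in the next label, glia, and *Tgfbr2* was 1126 CPM in microglia and 396 CPM (380 to 412) in ECs. *Nrros* was 588 CPM in microglia and 37.1 CPM (32.3 to 42.4) in ECs. In the CKO library *Il34* was again highest in pericytes (11 UMIs, 1194 CPM) and *Cx3cl1* in Glut_20 (652 CPM).

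The CKO nuclei were compared with the control nuclei over the 989 genes with at least 20 UMIs in both sets together. The minimum is passed mainly through the control, which holds 79925 UMIs against 14637, so the split of higher and lower genes is a description that depends on it. In all, 188 genes (19.0%) were at least 2-fold higher and 515 (52.1%) were at a ratio of at most 0.5, with a median ratio of 0.455. Of the 188 higher genes, 167 were also higher in the other control nuclei, and without such genes 21 of 761 were higher. The median ratio of all tested genes was 0.335 at a minimum of 50 UMIs and 0.910 at a minimum of 5. Under TMM scaling the split was 48 higher and 690 lower, with a median of 0.206, and with every nucleus weighted equally it was 256 higher and 464 lower, with a median of 0.541. Taking a count of 0 as 3 UMIs, 431 genes were at most 0.5, since 137 of the lower genes had 0 CKO UMIs.

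Of the 14 identity genes tested, 13 were at a ratio of at most 0.5, beside 52.1% of all genes, and 0 were at least 2-fold higher, with a median of 0.152 beside 0.455. Of the 510 genes called in the control profile, 448 were at most 0.5 and 0 were at least 2-fold higher, with a median of 0.195. The identity count is near that share, so it is not particular to the list. Taking a count of 0 as 3 UMIs, 12 were lower. *P2ry12* had 82 control UMIs and 1 CKO UMI (ratio 0.0666, 0.00167 to 0.382). *Csf1r* had 125 and 5 UMIs, a ratio of 0.218 (0.0697 to 0.523). *Siglech* had 78 and 8 UMIs, a ratio of 0.560 (0.234 to 1.16) whose interval includes 1. Without nuclei with at least 5 neuron UMIs *Siglech* was at 1.11 (0.350 to 2.71). The CKO nuclei left in this setting, here and below, held 3648 UMIs, of which 1 nucleus held 1761. *Itgam*, *Gpr34* and *Trem2* had 0 CKO UMIs. At this depth 3 UMIs are 205 CPM, so that *Itgam* was at least 3.48-fold lower, while *Trem2*, at 338 CPM in the control, was at least 1.65-fold lower. Without nuclei with at least 5 neuron UMIs the upper interval limits of both ratios were above 1, at 1.17 for *Itgam* and 2.47 for *Trem2*, so neither difference was resolved there.

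Other lists hold genes of the control profile, which pass the minimum mainly through the control, so their lower counts are a description. Taking a count of 0 as 3 UMIs, 431 of 989 genes were lower. At that floor 10 of 10 tested myeloid transcription factors were lower, and 5 of 10 genes of Fc receptors and tyrosine kinase signaling. Of phagocytic receptors and bridging proteins 2 of 5 tested genes were lower there, and of pattern recognition receptors 1 of 4. Of the myeloid transcription factors, 10 of 10 tested were at most 0.5, beside 52.1% of all genes and 448 of the 510 genes called in the control profile. *Runx1* had 136 and 8 UMIs (0.321, 0.136 to 0.651). Without nuclei with at least 5 neuron UMIs *Runx1* was at 0.634 (0.203 to 1.52). *Tgfbr1* had 229 and 10 UMIs (0.238, 0.113 to 0.447), and *Tgfbr2* had 90 UMIs and 1 UMI (0.0607, 0.00152 to 0.347). Of the border macrophage list, 5 of 5 tested genes were lower, and 4 of 5 with a count of 0 taken as 3 UMIs. *F13a1* had 472 and 8 UMIs (0.0926, 0.0397 to 0.184), the latter in 2 CKO nuclei. Without nuclei with at least 5 neuron UMIs *F13a1* was at 0.252 (0.101 to 0.524), and the upper limit of *Mrc1* was 0.188. The upper limits of *Cd163* (1.38), *Ms4a7* (1.82) and *Cbr2* (3.42) were above 1 there, so these 3 were not resolved. Of the lists that were not lower, beside 19.0% of all genes, the neuron list had 4 of 4 tested genes at least 2-fold higher, the oligodendrocyte precursor list 2 of 3 and the astrocyte list 1 of 2. The cell cycle list had 0 of its 3 tested genes past 2-fold in either direction, with *Top2a* at 28 and 8 UMIs (1.56, 0.614 to 3.51).

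The 10 genes with the highest ratios were *Kcnip4*, *Gpm6a*, *Stxbp5l*, *Syt1*, *Tmem108*, *Ank2*, *Fyn*, *Npas3*, *Nhsl2* and *Cacna1e*. *Kcnip4*, which encodes a potassium channel interacting protein, stood at 300.3 CPM in the control and 3348 CPM in the CKO nuclei, 11.1-fold higher (6.71 to 19.0), and *Syt1*, the synaptic vesicle calcium sensor gene, at 113 and 888 CPM, 7.89-fold higher (3.12 to 20.9). The size of these ratios depended on the scaling, with *Kcnip4* at 5.04 under TMM scaling and 37.2 with every nucleus weighted equally, and *Syt1* at 3.57 and 16.3. All 10 genes stayed at least 2-fold higher under both, between 3.14 and 5.04 under TMM scaling and between 6.01 and 63.1 with equal weights. For *Kcnip4*, 95.9% of the CKO UMIs lay in 3 nuclei. Without nuclei with at least 5 neuron UMIs *Kcnip4* and *Gpm6a* had 1 CKO and 0 control UMIs, *Syt1* had 0 and 1, and *Stxbp5l* and *Tmem108* had 0 in both, too few to compare. *Ank2* had 1 UMI in each, and *Nhsl2* had 1 CKO and 9 control UMIs (1.87, 0.0428 to 13.5). Other genes of the 10 were higher in these nuclei too, where 1 nucleus held 1761 of the 3648 CKO UMIs. *Npas3* had 15 CKO and 7 control UMIs (36.2-fold, 13.9 to 105), *Fyn* had 3 and 5 UMIs (ratio 10.1, 1.57 to 52.0) and *Cacna1e* had 3 and 0 UMIs, with a lower limit of 6.97. At the other end 137 lower genes had 0 CKO UMIs and were tied at a ratio of 0. The 10 named from this tie, with 62 to 506 control UMIs, were *Xist*, *Dab2*, *Rasgrp3*, *Arhgap15*, *Ivns1abp*, *Ccnd3*, *Ctsc*, *Ddx60*, *E230029C05Rik* and *Retreg1*. With 0 taken as 3 UMIs, *Xist*, with 506 control UMIs, was at least 30.9-fold lower, and the upper limit of its ratio was 0.0400. *Dab2*, with 253, was at least 15.4-fold lower, with an upper limit of 0.0802, and *Ctsc*, which encodes a lysosomal protease, with 82, at least 5.01-fold lower, with an upper limit of 0.251. Without nuclei with at least 5 neuron UMIs the upper limits were 0.157 for *Xist*, 0.251 for *Dab2* and 0.776 for *Ctsc*, and those of *Retreg1* (1.13) and *E230029C05Rik* (1.05) were above 1. Of the control UMIs of *Dab2* 243 of 253, and of those of *Ctsc* 71 of 82, lay in the 53 nuclei with border macrophage UMIs. The counts were 71 of 75 for *Ddx60* and 79 of 94 for *Arhgap15*. Such nuclei made up 2 of 11 CKO nuclei, and their part in these ratios was not tested.

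Markers of other cells moved with these ratios. The neuron list summed to 1276 CPM in control and 5124 CPM in CKO microglia, where 75 UMIs lay in 7 of 11 nuclei, led by *Meg3* with 29, with *Slc17a7*, *Grin2b* and *Gad2* at 0. The 5 CKO nuclei with at least 5 neuron UMIs held 75.1% of the CKO UMIs. The astrocyte list summed to 475 and 2801 CPM, led by *Slc4a4* with 16 CKO UMIs and with *Gja1*, *Gfap* and *Aldh1l1* at 0, and the oligodendrocyte precursor list to 2327 and 5807 CPM, led by *Lhfpl3* and with *Olig1* and *Olig2* at 0. The part of these markers in the lower identity genes and the higher neuron genes was not tested. Without nuclei with at least 5 neuron UMIs, 6 CKO nuclei with 3648 UMIs and 123 control nuclei remained, 51 of 705 genes were higher and 401 lower, and of the 14 identity genes 9 were at most 0.5, a share near that of all genes. The intervals of all 9 include 1, and 4 of the 9 had 0 CKO UMIs, so lower identity genes were not resolved in these nuclei. In these nuclei *P2ry12* was at 0.216 (0.00541 to 1.24), *Cx3cr1* at 0.422 (0.0502 to 1.57) and *Csf1r* at 0.562 (0.151 to 1.48), and all 3 intervals include 1. Of the 6 CKO nuclei left, 1 held 1761 of the 3648 UMIs, with 12 identity, 9 astrocyte and 14 oligodendrocyte precursor UMIs. Others of the 6 held 11 and 18 oligodendrocyte precursor UMIs, so UMIs of other cell lists remained in this set.

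**Figure D4:**
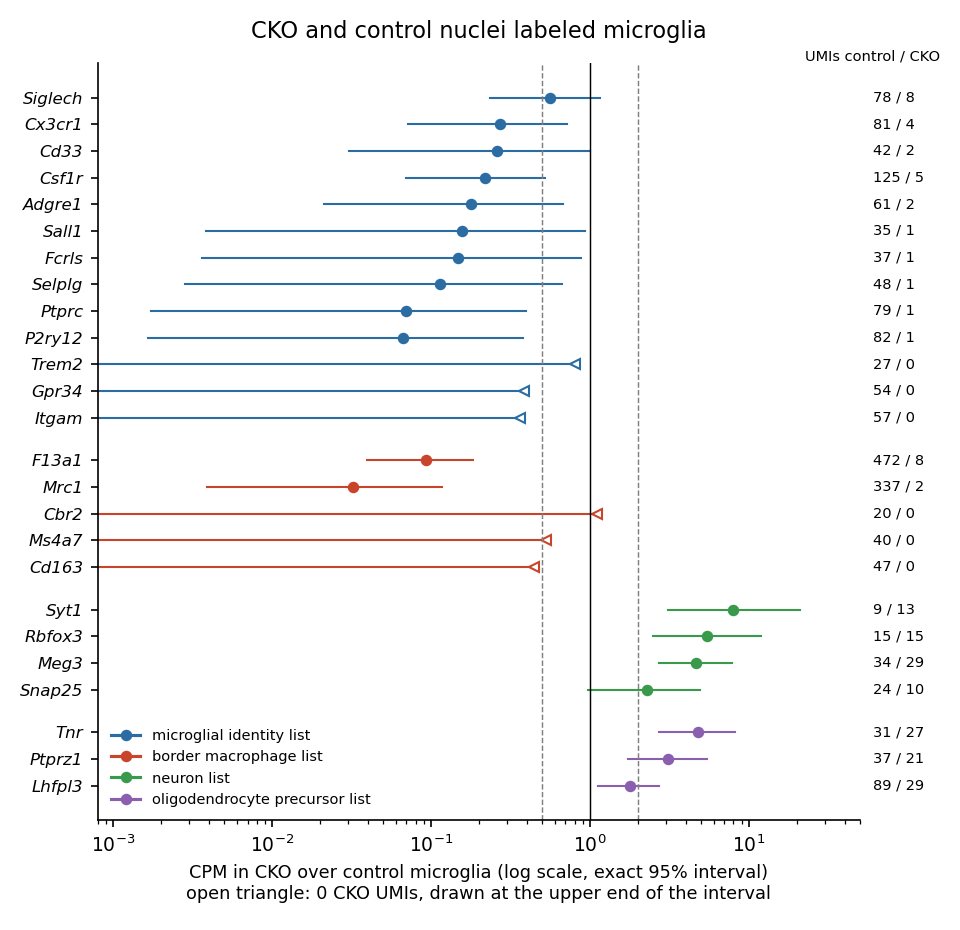
Ratio of CPM in the 11 CKO over the 129 control nuclei labeled microglia (x axis, log scale) with exact 95% intervals for tested genes of 4 lists, with the UMIs of both libraries at the right and open triangles at the upper end of the interval where the CKO count is 0. Identity and border macrophage genes lie below 1 and neuron and oligodendrocyte precursor genes above it.

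Among the 657 genes with at least 5 UMIs in the CKO nuclei, 140 were at least 4-fold above the other CKO nuclei. Some microglial transcripts were among them, whereas 8 of the 25 leading genes had 0 CKO UMIs. *Siglech* had 8 UMIs in 5 CKO nuclei, a ratio of 499 (199 to 1097), and *Apbb1ip* had 15 UMIs in 8 nuclei, a ratio of 292 (158 to 502). *Runx1* had 8 UMIs in 7 nuclei, a ratio of 91.6 (39.0 to 184). *Mertk* had 18 UMIs in 9 nuclei, a ratio of 19.2 (11.3 to 30.4). Genes with low ratios in control microglia passed too. *Gm29260* was at 78.5, from 5 UMIs in 1 nucleus, *Il16* at 37.8 and *Pax6* at 23.2. Their ratios in control microglia were 1.72, 0.585 and 0.291.

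Without reference to the label, the summed border macrophage list differed more between the libraries than the summed identity list did. Summed over all nuclei, *F13a1* was at 26.7 CPM in the control and 4.96 CPM in the CKO library, a ratio of 0.186 (0.156 to 0.220), and *Mrc1* at 22.7 and 10.6 CPM, a ratio of 0.467 (0.412 to 0.528). The list as a whole was at 66.1 and 24.8 CPM, a ratio of 0.375 (0.346 to 0.405). Of the identity genes, *P2ry12* was at 4.92 and 3.25 CPM, a ratio of 0.662 (0.519 to 0.837), and 3 of the 20 genes were at a ratio below 0.5 (*Tmem119*, *Selplg* and *Gpr34*).

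The 25 leading genes of brain microglia were then read in nuclei labeled immune in the retina, which were not used to choose them. These number 720 of 77676 retinal nuclei. In CKO retinas the study found B cells, T cells, NK cells, dendritic cells and macrophages beside microglia. Several leading genes, such as *Ptprc* and *Cd37*, are genes of leukocytes at large, and the retinal labels too came from clustering. The counts below are therefore a description and no test of a microglial profile. In the control retina library, with 29 immune nuclei, 24 of the 25 genes were at least 4-fold above the other nuclei of that library, beside 257 of 841 genes (30.6%) tested in brain microglia. In each of the 11 CKO libraries, with 17 to 229 immune nuclei, between 23 and 25 of the genes (median 23) passed, of 23 to 25 that had UMIs there. Over the 11 CKO libraries summed, 296 of 843 genes (35.1%) passed. *Itgam* had UMIs in only 5 of the 11 CKO libraries and could not pass in the others. *Gm30489* had 0 immune UMIs in the control library and a ratio of at least 4 in 3 of the 9 CKO libraries where it was found.

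Per library the values varied. *Siglech* was at a ratio of 719 in the control retina and at a lowest of 63.1 and a median of 691 in the 11 CKO libraries, with no highest value because other nuclei of some libraries had 0 UMIs. *Runx1* was at 183 in the control and at a lowest of 94.0, a median of 130 and a highest of 258 in the CKO libraries. *Il10ra* was at 1259 in the control and at a lowest of 17.6, a median of 358 and a highest of 1432. Border macrophage UMIs were at least 2 in 0 of 29 immune nuclei of the control retina and in 0% to 26.6% of those of the CKO libraries (median 13.8%), against 41.1% of the control brain nuclei labeled microglia. The retinal and the brain label are not the same choice of nuclei, and the difference between them was not tested. CKO library 4 of the retina holds only 39 nuclei of other labels.

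The promoters of the leading genes were searched for the letters GAGGAAGT, a form of the site of PU.1, on both strands. From RefSeq promoters of build GRCm38.p6, which run from 250 bases before to 50 bases after each start, 23 promoters of 17 of the 25 genes were found, and 4 of them (17.4%) held the letters, beside 1052 of 32851 promoters of all genes (3.20%). Over the genes called at 4-fold, 40 of 584 promoters (6.85%) held them. The letters TGTGGTTT, a form of the RUNX site, were in 0 of the 23 promoters and in 1.78% of all, and a 10-letter form of the MEF2 site was in 0 of 23 and in 0.110%. A match is a description of letters in this window. The 4 promoters of leading genes that held GAGGAAGT are shown, 5′ to 3′ along the strand of the gene, with the matching letters in capitals. They are *Apbb1ip* (chr2:22774077-22774376, plus strand), *Cd37* (chr7:45238790-45239089, minus strand), *Fgd2* (chr17:29360664-29360963, plus strand) and *Vav1* (chr17:57278850-57279149, plus strand).
Apbb1ip: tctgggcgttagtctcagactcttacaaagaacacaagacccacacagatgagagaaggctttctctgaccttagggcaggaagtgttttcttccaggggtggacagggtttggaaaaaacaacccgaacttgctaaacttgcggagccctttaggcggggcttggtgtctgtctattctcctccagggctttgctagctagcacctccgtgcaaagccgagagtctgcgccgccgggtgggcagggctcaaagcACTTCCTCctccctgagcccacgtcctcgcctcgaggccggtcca
Cd37: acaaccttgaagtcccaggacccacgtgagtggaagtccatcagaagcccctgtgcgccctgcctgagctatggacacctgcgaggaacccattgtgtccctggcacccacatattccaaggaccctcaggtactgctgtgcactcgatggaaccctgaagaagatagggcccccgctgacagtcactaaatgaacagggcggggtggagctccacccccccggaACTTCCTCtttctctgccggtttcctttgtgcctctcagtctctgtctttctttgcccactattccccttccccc
Fgd2: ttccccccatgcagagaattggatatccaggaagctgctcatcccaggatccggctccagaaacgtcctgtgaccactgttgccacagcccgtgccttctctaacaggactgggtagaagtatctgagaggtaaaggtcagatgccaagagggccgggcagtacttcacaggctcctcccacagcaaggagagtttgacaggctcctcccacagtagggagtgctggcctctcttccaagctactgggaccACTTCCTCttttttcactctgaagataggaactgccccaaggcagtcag
Vav1: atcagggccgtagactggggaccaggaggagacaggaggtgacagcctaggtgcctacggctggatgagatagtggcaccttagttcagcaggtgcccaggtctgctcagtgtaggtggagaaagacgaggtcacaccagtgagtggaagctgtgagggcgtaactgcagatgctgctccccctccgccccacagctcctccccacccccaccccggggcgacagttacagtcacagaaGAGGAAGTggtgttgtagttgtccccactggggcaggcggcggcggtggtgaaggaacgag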

How the data were processed

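Nuclei were taken from 1 control and 1 CKO brain library. The authors made the deposited counts, whole UMI numbers per gene and nucleus, with PIPseeker, CellBender, doublet removal and manual curation, and assigned the labels by clustering in Seurat. The labels name build mm10, whereas the methods name GRCm39. UMIs were summed over the nuclei of a set and divided by the set's total (CPM), and ratios were taken between sets with exact intervals, with Python 3.11.15, numpy 2.4.6, scipy 1.17.1 and pandas 2.3.3. TMM factors came from edgeR 4.0.16 in R 4.3.3. The scripts were tested on simulated data. For folds against a count of 0, the 0 was taken as 3 UMIs over the set, and counts of 1 or more were used as they are. Named genes are the 25 leading by ratio, the 10 highest and 10 lowest in the CKO, the 10 most variable and members of 40 gene lists. The members and lists were chosen with earlier results of these data known. Alternatives covered scaling, minimum UMIs, depth, weighting of nuclei and leaving out nuclei or genes. With 1 library per genotype no test between genotypes was made. Some genes are not reported here.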

Additional observations from a re-analysis of the deposited data

How the results depend on the processing

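Some alternatives were chosen after seeing the data. The profile called 237 genes against the highest other label, 219 of 302 at 50 UMIs, 47 of 197 in nuclei with at least 1000 UMIs, where *Fgd2* and *Ncf1* were at 0, and 307 of 445 without nuclei with border macrophage UMIs, where *Gm30489* was at 0. Higher genes in the CKO numbered 48 under TMM scaling, 55 of 364 at 50 UMIs, 901 of 3242 at 5 UMIs, 21 of 761 without genes higher in other control nuclei, 77 of 537 without nuclei with border macrophage UMIs and 51 of 705 without nuclei with at least 5 neuron UMIs. Lower genes numbered 234, 1301 and 307 at 50 UMIs, at 5 UMIs and without nuclei with border macrophage UMIs. At 50 UMIs the split of the control nuclei gave 48 higher and 82 lower of 300 genes. Variable genes numbered 83 of 110 in nuclei with at least 1000 UMIs and 81 of 436 without neuron UMI nuclei. Thinning gave 47.4% for *Csf1r* and 26.3% for *Cx3cr1*. The control share was 3.12% with at least 2 identity genes, 1.77% with at least 3, 0.104% at 1000 UMIs, 1.53% without neuron clusters and 0.456% with fewer than 2 border macrophage UMIs. The CKO share was 2.00%, 0.865% and 0.174% with at least 2 identity genes, with at least 3 and without neuron clusters. The ratio of shares was 0.641 with at least 2 identity genes, 0.488 with at least 3 and 0.541 at 1000 UMIs. It was 0.103 without ECs, 0.114 without neuron clusters and 0.134 with fewer than 2 border macrophage UMIs, beside 0.0967 in the main setting. Fewer genes or nuclei enter most of these settings, and other causes were not tested. Depth limits the CKO set, where 3 UMIs are 205 CPM. No paired analysis was possible because there is 1 library per genotype.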
